A study of Mus musculus with 8 samples.

Results

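The genes described here are 32 genes of blood coagulation and fibrinolysis, chosen by name and found in the count table through their Ensembl identifiers. All 32 were found among 54309 genes in the table, and all 32 were measured well enough to enter the test, which covered 15472 genes. They were read as 26 factors made by hepatocytes and 6 made mainly by macrophages or endothelial cells (F13a1, F3, Plau, Plaur, Vwf and Thbd). RNA came from whole liver of male C57BL/6 mice (C57BL/6J in the series text) that were fed a diet of fructose, palmitate and cholesterol for 16 weeks to give nonalcoholic steatohepatitis, an inflamed and scarring fatty liver. The antiCD47 group received an antibody against CD47, a surface protein that restrains engulfment by macrophages, at 200 µg per mouse into the peritoneum from week 8 to week 16. The IgG group received control IgG over the same weeks. All mice of both groups carried the diet, so no healthy liver enters the comparison. The series describes 7 to 8 mice per group, and 4 libraries of each group were measured here. Which animal gave which library is not stated in the labels, so the p-values measure the spread between these libraries, which may be technical.

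Coagulation is a cascade in which circulating zymogens, nearly all secreted by hepatocytes, cleave and activate each other until thrombin turns fibrinogen into fibrin, which factor XIII then cross-links. Tissue factor starts the cascade, contact proteins can amplify it, and inhibitors such as antithrombin and the protein C system hold it in check. Fibrinolysis removes the clot: activators turn plasminogen into plasmin, and antiplasmin and the carboxypeptidase encoded by Cpb2 oppose it. In the liver the 3 fibrinogen chains are classical acute phase genes, raised by interleukin signalling in hepatocytes.

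Total counts lay between 43691472 and 55477484 per library, and no 2 libraries of a group agreed within sampling noise (chi-square per degree of freedom of at least 26.3). The antibody's target gene Cd47 averaged 80.3 ± 7.3 CPM (the count scaled to a common library size, with TMM factors) in antiCD47 livers and 72.8 ± 4.2 CPM in IgG livers (SD, n = 4 each), and did not pass the test (log2 fold change 0.14 ± 0.08, edgeR adjusted p = 0.24). The 9 hepatocyte markers found summed to 60070 to 73050 CPM in antiCD47 livers and 57780 to 63580 CPM in IgG livers, so the labelled tissue showed its defining cells. The median log2 fold change of all genes tested was -0.01. The TMM factors did not overlap, at 0.895 to 0.989 in antiCD47 libraries and 1.03 to 1.11 in IgG libraries. The library IgG 2 stood apart for several of the genes below. Except for Socs3, their log2 fold changes are given with and without it.

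In antiCD47 livers 7 of the 32 genes rose (Fga, Fgb, Fgg, Serpina10, Cpb2, Serpinf2 and F13a1) and 4 fell (F11, Klkb1, Plat and F3), at an adjusted p under 0.05 (edgeR quasi-likelihood test, two-sided, Benjamini-Hochberg adjustment over all genes tested). These 11 genes are 34.4% of the list, where 10.8% of all genes tested passed, 5.44% higher and 5.4% lower. The other 21 did not pass. This list and the further gene lists below were chosen with earlier results of these data known. Such shares are therefore a description and not a test. The median log2 fold change of the list was 0.14, with a range of -1.23 to 2.32, and 23 of the 32 values were positive. Among the 26 hepatocyte-made genes 6 rose and 3 fell (median 0.16), and among the 6 macrophage or endothelial genes 1 rose and 1 fell (median 0.14). The 4 antiCD47 and 4 IgG libraries did not overlap in 14 of the 32 genes, 9 higher and 5 lower, where 19.6% of all genes tested had such a gap. These 14 are the 11 genes past the threshold with F9, Kng2 and Serpind1. The authors' deposited table gave an adjusted p under 0.05 to 14 of the 32 genes, where it did so for 18.4% of the genes it lists with an adjusted p. Those 14 are the same 11 genes with Kng2, Procr and Thbd.

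**Figure D1:**
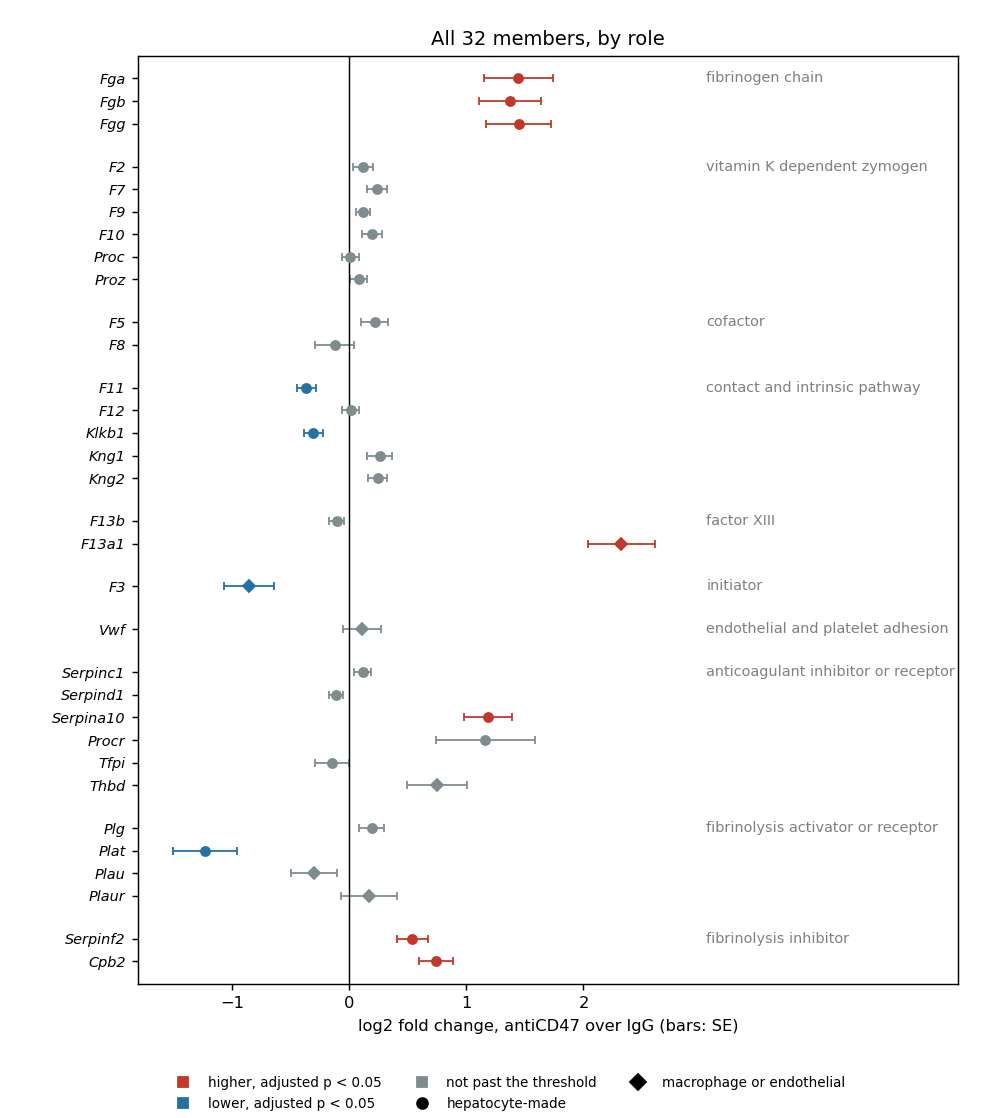
Log2 fold change of each of the 32 genes, antiCD47 over IgG, on the horizontal axis, with genes grouped by role down the page (bars: SE of the edgeR fit; circles, hepatocyte-made; diamonds, macrophage or endothelial). The 3 fibrinogen chains sit between 1.37 and 1.45, the vitamin K dependent zymogens between 0.01 and 0.24, and F13a1 and Plat lie at the 2 ends of the range, 2.32 and -1.23.

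The fibrinogen genes encode the 3 chains of the soluble protein that thrombin turns into fibrin: Fga the Aα chain, Fgb the Bβ chain and Fgg the γ chain. All 3 rose. Fga (ENSMUSG00000028001) stood at 5310, 9622, 8673 and 4988 CPM in antiCD47 1 to 4, against 2189, 4212, 2098 and 2029 CPM in IgG 1 to 4. Every antiCD47 library was above every IgG library, with IgG 2 the nearest to them. Fgb (ENSMUSG00000033831) stood at 5386, 8835, 7834 and 4540 CPM in antiCD47 livers, against 2087, 3888, 2168 and 2145 CPM in IgG livers. Fgg (ENSMUSG00000033860) stood at 4258, 7308, 6641 and 3782 CPM in antiCD47 livers, against 1651, 3131, 1664 and 1621 CPM in IgG livers. In both genes the groups did not overlap, antiCD47 2 and 3 were the 2 highest libraries, and IgG 2 stood above the other 3 IgG libraries. The log2 fold changes were 1.44 ± 0.29 for Fga, 1.37 ± 0.26 for Fgb and 1.45 ± 0.28 for Fgg (SE; edgeR adjusted p = 0.0247, 0.021 and 0.021), and the ratios of the group means were 2.72, 2.59 and 2.73. Without IgG 2 they were 1.77, 1.64 and 1.74 (edgeR adjusted p = 0.0128, 0.0128 and 0.0127). The calls of all 3 chains were lost without antiCD47 3, IgG 1, IgG 3 or IgG 4 (edgeR adjusted p = 0.0644 to 0.0782, with log2 fold changes of 1.204 to 1.77 over the 8 fits that leave out a library). In bulk tissue, more cells of a type and more RNA per cell cannot be told apart, for these genes and those that follow. Beside the fibrinogen genes, 3 abundant hepatocyte markers did not pass, Alb with a log2 fold change of 0.13 ± 0.10, Apoa1 with -0.09 ± 0.11 and Ahsg with 0.05 ± 0.15 (SE; edgeR adjusted p = 0.376, 0.573 and 0.836). Of the 9 hepatocyte markers tested 1 rose, Hnf4a, whose values are given below, and 8 did not pass. The largest log2 fold change of the 9, that of Serpina1e, was 1.33 ± 0.57 (SE, edgeR adjusted p = 0.138).

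**Figure D2:**
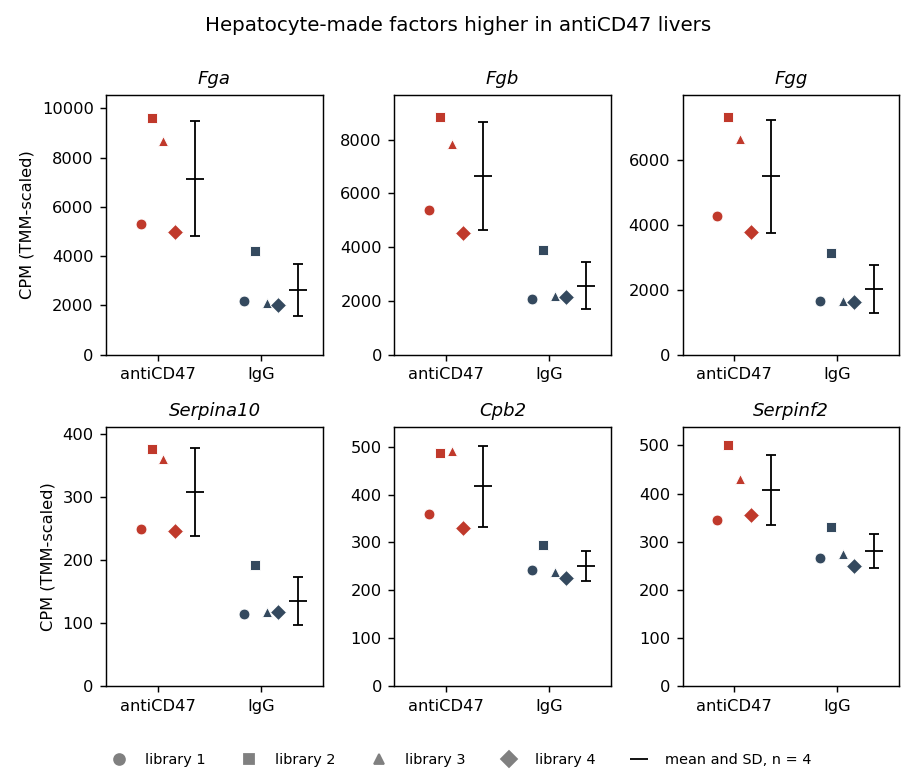
CPM per library of the 6 hepatocyte-made genes that rose, antiCD47 left and IgG right of each panel, with mean and SD (n = 4). In each panel the antiCD47 libraries lie above the IgG libraries, and the IgG 2 square is the highest of the IgG symbols (4212 CPM for Fga).

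The 3 chains kept nearly fixed proportions. Fga stood at 0.986 to 1.11 times Fgb in antiCD47 livers and at 0.946 to 1.08 times in IgG livers, in CPM. Fgg stood at 0.791 to 0.848 times Fgb in antiCD47 livers and at 0.756 to 0.805 times in IgG livers. In both ratios the ranges of the groups overlapped. For Fgg over Fgb, though, antiCD47 2 to 4 (0.827 to 0.848) lay above every IgG library. Across all 8 libraries, IgG 2 included, both ratios varied far less than the CPM of the chains. Together they took 1.43%, 2.31%, 2.11% and 1.31% of all counts in antiCD47 livers, against 0.608%, 1.16%, 0.651% and 0.643% in IgG livers. Of the summed CPM of the 32 genes they made 59.0% to 70.1% in antiCD47 livers and 40.5% to 54.3% in IgG livers. The other 23 hepatocyte-made genes summed to 9208 to 11350 CPM in antiCD47 livers and 8208 to 9421 CPM in IgG livers, ranges that overlap.

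The 3 genes are direct neighbours on chromosome 3 among protein-coding genes, in the order Fgg, Fga, Fgb, with Fgb read from the opposite strand (RefSeq, GRCm38.p6). Their promoters are printed because the 3 genes moved together. Each is the 250 bases before the gene's start, 5′ to 3′ on the gene's strand, with capitals on CTGGGA, the core of the element through which interleukin 6 signalling acts on acute phase genes.
Fga, chr3:83025903-83026152 (+ strand): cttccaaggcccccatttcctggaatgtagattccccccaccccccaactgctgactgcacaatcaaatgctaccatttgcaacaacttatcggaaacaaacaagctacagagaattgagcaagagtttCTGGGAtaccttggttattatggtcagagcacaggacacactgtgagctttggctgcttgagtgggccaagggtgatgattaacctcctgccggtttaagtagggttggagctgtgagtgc
Fgb, chr3:83049864-83050113 (- strand): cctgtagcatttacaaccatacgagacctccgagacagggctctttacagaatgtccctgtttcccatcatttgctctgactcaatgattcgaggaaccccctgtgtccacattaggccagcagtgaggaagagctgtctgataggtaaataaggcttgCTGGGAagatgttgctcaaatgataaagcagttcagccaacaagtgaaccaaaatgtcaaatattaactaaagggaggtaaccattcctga
Fgg, chr3:83007474-83007723 (+ strand): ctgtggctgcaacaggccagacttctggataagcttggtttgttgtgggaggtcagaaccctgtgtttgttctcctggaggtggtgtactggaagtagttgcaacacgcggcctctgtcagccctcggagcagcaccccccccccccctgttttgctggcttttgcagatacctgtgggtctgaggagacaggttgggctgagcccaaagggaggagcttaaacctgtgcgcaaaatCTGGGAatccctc
The core begins at -121 in Fga, -91 in Fgb and -13 in Fgg, counted back from the start. It is a short motif: on either strand, 26.957% of 32544 RefSeq promoters of that length hold it. Of the 32 genes 24 had a promoter in the table, and 10 of these held the core, 4 of 6 that rose, 1 of 3 that fell and 5 of 15 that did not pass. The motif GTTAAT of the hepatocyte factor HNF1 was found in Fga and Fgb, in 4 of 24 genes of the list and in 6.465% of all promoters. The C/EBP motif TTGCNNAA was found in Fga and Fgb, in 8 of 24 genes and in 9.581% of all promoters. For each motif the list was counted by gene, with a match in any of its promoters, and the full set by promoter. The shares are thus not in the same unit. Both strands were searched, no match overlapped in Fga, Fgb or Fgg, and the motifs were chosen with these promoters in view. A match is a description of the letters and shows no bound factor.

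Of 10 listed regulators of hepatocyte and acute phase genes 4 rose and 1 fell, and the values of the 3 most abundant follow. Il6st, which encodes the signalling receptor subunit gp130 for interleukin 6, stood at 223, 371, 288 and 282 CPM in antiCD47 livers, against 155, 182, 154 and 170.0 CPM in IgG livers, and rose (log2 0.82 ± 0.14, edgeR adjusted p = 0.0164). Hnf4a, a nuclear receptor that maintains hepatocyte genes, stood at 696, 941, 764 and 609 CPM in antiCD47 livers, against 481, 609, 499 and 428 CPM in IgG livers (log2 0.58 ± 0.15, edgeR adjusted p = 0.0382). Cebpa, a hepatocyte transcription factor, averaged 246 ± 26 CPM in antiCD47 livers and 254 ± 25 CPM in IgG livers and did not pass (adjusted p = 0.757). Stat3, the factor that gp130 activates, was singled out after its values were seen. It stood at 185, 273, 247 and 176 CPM in antiCD47 livers, against 86.0, 170.0, 83.2 and 79.3 CPM in IgG livers, with IgG 2 high as for fibrinogen (log2 1.07 ± 0.26, edgeR adjusted p = 0.0324, and 1.41 without IgG 2, adjusted p = 0.0101). The calls were lost without antiCD47 3, IgG 1, IgG 3 or IgG 4, those of Hnf4a and Stat3 also without antiCD47 2 (edgeR adjusted p = 0.0544 to 0.103). Il6ra, Socs3 and Cebpb, on the same list, did not pass. Their log2 fold changes were 0.16 ± 0.15, 0.20 ± 0.47 and 0.14 ± 0.21 (SE, edgeR adjusted p = 0.487, 0.797 and 0.686). Socs3 stood at 8.93, 23.3, 16.1 and 14.1 CPM in antiCD47 livers, against 7.95, 30.4, 7.71 and 8.37 CPM in IgG livers. Its value in IgG 2 was the highest of all 8 libraries, and no fit without IgG 2 is given for it. Cebpb was also highest in IgG 2, at 110.2 CPM. The part of these regulators in the fibrinogen values was not tested.

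The vitamin K dependent zymogens carry gamma-carboxylated residues that bind calcium and membranes, and none of the 6 passed the threshold. F2, prothrombin, stood at 1270.0, 1406, 1304 and 1172 CPM in antiCD47 livers, against 1175, 1293, 1177 and 1096 CPM in IgG livers, and the groups overlapped. F9, F10 and F7 encode factor IX, factor X and factor VII. F9 averaged 216 ± 2.9 CPM in antiCD47 livers and 199.6 ± 10.7 CPM in IgG livers, and F10 averaged 255 ± 25 CPM in antiCD47 livers and 223 ± 14 CPM in IgG livers. F7 averaged 38.1 ± 4.4 CPM in antiCD47 livers and 32.3 ± 2.0 CPM in IgG livers. The F9 libraries did not overlap, yet by a small margin, 214 CPM for the lowest antiCD47 library and 211 CPM for the highest IgG library. Proc, protein C, averaged 314 ± 20 CPM in antiCD47 livers and 312 ± 20 CPM in IgG livers, and Proz, protein Z, averaged 300.0 ± 19.3 CPM in antiCD47 livers and 284 ± 17 CPM in IgG livers. The 6 log2 fold changes were all positive and small, 0.01 to 0.24, with edgeR adjusted p of 0.102 to 0.946. Scaling by library totals turned the signs of F2, F9, Proc and Proz, and upper quartile scaling turned that of Proc. F7, F10 and Proz are neighbours on chromosome 8 as the fibrinogen genes are on chromosome 3, and none of them passed.

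The 2 cofactors did not pass. F5, factor V, which speeds thrombin formation, averaged 592 ± 65 CPM in antiCD47 livers and 509 ± 69 CPM in IgG livers (log2 0.22 ± 0.12, edgeR adjusted p = 0.217). F8, factor VIII, which in the liver is known to come from sinusoidal endothelial cells, averaged 11.01 ± 1.26 CPM in antiCD47 livers and 11.98 ± 2.82 CPM in IgG livers (log2 -0.12 ± 0.17, adjusted p = 0.635). F8 overlaps Fundc2 on the opposite strand, at 8.26 CPM on average against 11.5 CPM for F8, and whether the counting used strand is not given, so their reads may be mixed.

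Of the 5 contact and intrinsic pathway genes 2 fell, both by a small amount. F11 (ENSMUSG00000031645), the zymogen factor XI, stood at 28.6, 24.9, 23.2 and 25.8 CPM in antiCD47 livers, against 35.2, 30.2, 33.7 and 33.0 CPM in IgG livers. Klkb1 (ENSMUSG00000109764), plasma prekallikrein, which activates factor XII and releases bradykinin, stood at 174, 138, 143 and 154 CPM in antiCD47 livers, against 192, 186, 180.2 and 195 CPM in IgG livers. In neither gene did the groups overlap. The log2 fold changes were -0.37 ± 0.08 for F11 and -0.31 ± 0.08 for Klkb1 (SE; edgeR adjusted p = 0.028 and 0.0409). F11 and Klkb1, close relatives by sequence, are also neighbours on chromosome 8. The F11 call was lost without antiCD47 2, antiCD47 3, IgG 1, IgG 3 or IgG 4 (edgeR adjusted p = 0.0551 to 0.0874), and the Klkb1 call in every fit that left out a library other than antiCD47 1 (0.057 to 0.12). Klkb1 overlaps the gene model Gm45753 on the same strand, at 9.83 CPM on average against 170.2 CPM for Klkb1.

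The remaining contact genes did not pass. F12, factor XII, stood at 395, 404, 388 and 355 CPM in antiCD47 livers, against 379.8, 416, 374 and 357 CPM in IgG livers (log2 0.01 ± 0.07, edgeR adjusted p = 0.91), and its sign turned with scaling by library totals or upper quartile and without antiCD47 2 or IgG 4. Kng1 and Kng2 encode kininogens, the precursors of bradykinin, and are close copies, so reads may be split between them with error. Kng1 stood at 1873, 2280, 1734 and 1627 CPM in antiCD47 livers, against 1560, 1590, 1650 and 1478 CPM in IgG livers (log2 0.26 ± 0.11, edgeR adjusted p = 0.132). Kng2 stood at 265, 308, 269.9 and 259 CPM in antiCD47 livers, against 229.5, 249.6, 243 and 209 CPM in IgG livers (log2 0.24 ± 0.08, edgeR adjusted p = 0.0777). The Kng2 libraries did not overlap and those of Kng1 did. With all 8 libraries Kng2 passed in DESeq2 (adjusted p = 0.0307), in voom with quality weights (0.0318) and in edgeR with the replicate block (0.0426). It passed in 0 of the 8 fits that leave out a library. The ratio of Kng1 to Kng2 lay between 6.27 and 7.40 in antiCD47 livers and between 6.37 and 7.07 in IgG livers.

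Factor XIII, the enzyme that cross-links fibrin, is built from an A chain with the catalytic site, known to be made by cells of the macrophage and megakaryocyte lines, and a carrier B chain made by hepatocytes. The gene of the A chain rose and that of the B chain did not pass. F13a1 (ENSMUSG00000039109) stood at 3.56, 8.05, 4.98 and 4.52 CPM in antiCD47 livers, against 0.841, 1.47, 1.06 and 0.83 CPM in IgG livers. The lowest antiCD47 library was above the highest IgG library. Over the 4 libraries of each group this rests on 1019 counts in antiCD47 livers and 226 counts in IgG livers. The log2 fold change was 2.32 ± 0.29 (SE; edgeR adjusted p = 0.0132), the farthest from 0 among the 32 genes, and the ratio of the group means was 5.02. The call was lost only without IgG 4, of the 8 fits that leave out a library (edgeR adjusted p = 0.0583), and the log2 fold change lay between 2.05 and 2.53 over them. F13b stood at 173, 163, 153 and 153 CPM in antiCD47 livers, against 183, 174, 167 and 168 CPM in IgG livers (log2 -0.11 ± 0.06, edgeR adjusted p = 0.276). F13b passed as lower where libraries were scaled by their totals (log2 -0.29, adjusted p = 0.0218). The ratio of F13a1 to F13b, in CPM, was 0.0206 to 0.0495 in antiCD47 livers and 0.0046 to 0.00845 in IgG livers.

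Markers of cells that can hold F13a1 RNA moved in part with it. The 12 macrophage markers summed to 757 to 1045 CPM in antiCD47 livers and 500.1 to 771 CPM in IgG livers, and 4 of the 12 rose. The most abundant of them, Cd5l, had a log2 fold change of 0.65 ± 0.16 (edgeR adjusted p = 0.0377), lost with library totals (0.0714), with upper quartile scaling (0.0519) and in 6 of 8 fits that leave out a library (up to 0.105). The other 3, named after their values were seen, were Clec4f, Timd4 and Marco, all without overlap between the groups and with means 2.13, 4.46 and 12.1 times those of IgG livers. With a library left out, their edgeR adjusted p reached 0.0804, 0.116 and 0.0989. With all 8 libraries the calls of Timd4 and Marco were lost in the robust fit (0.0716 and 0.0688), and that of Timd4 with upper quartile scaling (0.0513). The 8 monocyte markers summed to 222 to 299 CPM in antiCD47 livers and 151 to 248 CPM in IgG livers, and 4 of the 8 rose, Plac8 (log2 0.73), Chil3 (1.40), Cd14 (1.09) and Itgam (0.90), with an edgeR adjusted p of up to 0.106 when a library was left out. The most abundant, Lyz2, did not pass (log2 0.31, edgeR adjusted p = 0.281). Nor did 2 whose log2 fold changes were negative, Cx3cr1 (-0.96, edgeR adjusted p = 0.0873) and Ccr2 (-0.18, 0.306). Neither sum separated the groups. The 10 platelet and megakaryocyte markers summed to 4.84 to 7.33 CPM in antiCD47 livers and 4.42 to 5.74 CPM in IgG livers, with 7 of them under 1 CPM in all 8 libraries, 4 without a count in at least 1 library, and none of the 3 tested past the threshold. The macrophage sum was lowest in IgG 2 among the IgG libraries, where F13a1 was highest. The part of cell numbers in the F13a1 result was not tested.

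F3 encodes tissue factor, the receptor that starts the cascade when blood meets it, and it fell. F3 (ENSMUSG00000028128) stood at 3.46, 2.88, 2.29 and 4.93 CPM in antiCD47 livers, against 6.81, 5.09, 5.79 and 6.79 CPM in IgG livers. The groups did not overlap, with antiCD47 4 just below IgG 2. The log2 fold change was -0.85 ± 0.22 (SE; edgeR adjusted p = 0.0384), from 644 counts in antiCD47 livers and 1308 counts in IgG livers. The call was lost without antiCD47 2, antiCD47 3, IgG 1, IgG 3 or IgG 4 (edgeR adjusted p = 0.0843 to 0.101). Beside it, the 8 biliary markers summed to 97.4 to 333 CPM in antiCD47 livers and 405 to 558 CPM in IgG livers, with 7 of 8 lower. Most of that sum was Spp1, at 163 ± 97 CPM in antiCD47 livers and 438.5 ± 58.1 CPM in IgG livers (SD). In each of the 8 the groups did not overlap. The 10 stellate cell markers summed to 674 to 853 CPM in antiCD47 livers and 855 to 1179 CPM in IgG livers, just separate. The sums differed mainly through the 2 that fell, Col1a1 and Col3a1. Col1a1 averaged 46.7 ± 10.7 CPM in antiCD47 livers and 111 ± 20 CPM in IgG livers. Col3a1 averaged 128 ± 34 CPM in antiCD47 livers and 290.2 ± 57.9 CPM in IgG livers. Of the rest 1 rose, Ecm1, and 7 did not pass, the most abundant, Dcn, among them. The part of biliary and stellate cells in the F3 result was not tested.

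Vwf, the adhesive carrier of factor VIII made by endothelial cells and megakaryocytes, averaged 7.82 ± 1.11 CPM in antiCD47 livers and 7.25 ± 1.55 CPM in IgG livers and did not pass (log2 0.11 ± 0.16, edgeR adjusted p = 0.67). The 12 endothelial markers summed to 279.8 to 318 CPM in antiCD47 livers and 259 to 363 CPM in IgG livers, and 1 of the 12, Eng, fell (log2 -0.36 ± 0.09, edgeR adjusted p = 0.0384, and up to 0.113 with a library left out).

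Of the 6 anticoagulant inhibitors and receptors 1 rose. Serpina10 (ENSMUSG00000061947), which encodes the protein Z dependent inhibitor of factor Xa, stood at 248, 375, 360.1 and 246 CPM in antiCD47 livers, against 114, 192, 117 and 118 CPM in IgG livers. The groups did not overlap, and antiCD47 2 and 3 and IgG 2 were high in their groups, as for the fibrinogen genes. The log2 fold change was 1.19 ± 0.21 (SE; edgeR adjusted p = 0.0174), and 1.41 without IgG 2 (adjusted p = 0.0112). The call was lost without antiCD47 3, IgG 1, IgG 3 or IgG 4 (edgeR adjusted p = 0.0553 to 0.063). Its partner Proz did not pass, as given above. Serpinc1, antithrombin, stood at 1247, 1344, 1274 and 1199 CPM in antiCD47 livers, against 1164, 1248, 1138 and 1117 CPM in IgG livers, with overlap between the groups (log2 0.12 ± 0.07, edgeR adjusted p = 0.285). Serpind1, heparin cofactor II, stood at 239.5, 250.2, 243 and 255 CPM in antiCD47 livers, against 255, 282, 273 and 257 CPM in IgG livers (log2 -0.11 ± 0.06, edgeR adjusted p = 0.233). Its libraries did not overlap, by a narrow margin, and with libraries scaled by their totals it passed as lower (log2 -0.30, adjusted p = 0.0234).

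The endothelial members of the anticoagulant system did not pass. Thbd, thrombomodulin, which turns thrombin towards protein C, stood at 4.41, 11.3, 6.74 and 7.94 CPM in antiCD47 livers, against 4.39, 4.55, 5.62 and 3.53 CPM in IgG livers. Procr, the endothelial receptor of protein C, stood at 1.18, 6.00, 3.01 and 1.92 CPM in antiCD47 livers, against 1.47, 1.25, 1.29 and 1.40 CPM in IgG livers. In both genes antiCD47 2 to 4 were above every IgG library, with antiCD47 2 the highest, while antiCD47 1 lay within the IgG range for Thbd and below it for Procr. The log2 fold changes were 0.75 ± 0.26 for Thbd and 1.16 ± 0.42 for Procr (SE; edgeR adjusted p = 0.0841 and 0.0951). Both passed without antiCD47 1 (edgeR adjusted p = 0.0152 and 0.0194) and with DESeq2 (0.0252 and 0.0272). Tfpi, the inhibitor of the tissue factor and factor VIIa complex, averaged 6.00 ± 0.31 CPM in antiCD47 livers and 6.64 ± 1.37 CPM in IgG livers (log2 -0.15 ± 0.15, edgeR adjusted p = 0.505).

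**Figure D3:**
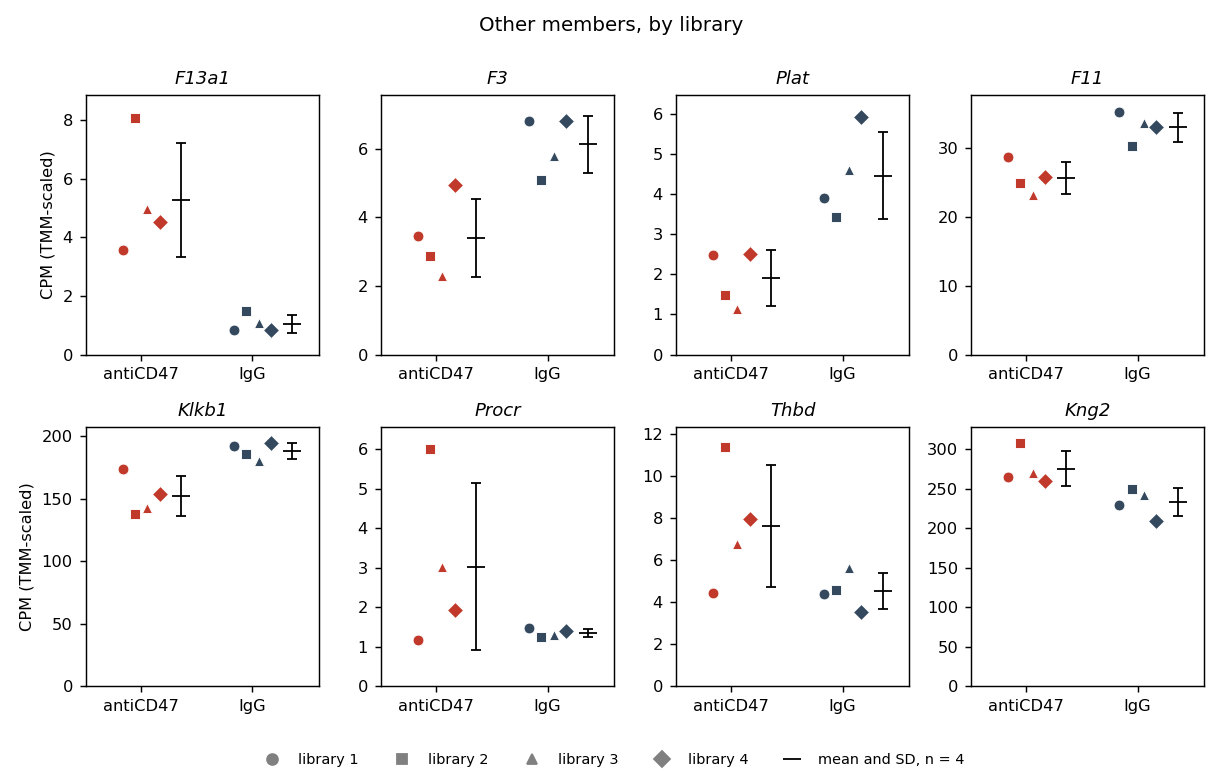
CPM per library of F13a1, F3, Plat, F11, Klkb1, Procr, Thbd and Kng2, antiCD47 left and IgG right of each panel, with mean and SD (n = 4). F13a1 and Kng2 lie higher in antiCD47 livers without overlap, F3, Plat, F11 and Klkb1 lie lower without overlap, and antiCD47 1 of Procr (1.18 CPM) lies below all IgG libraries.

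Of the 4 genes that form or localise plasmin 1 fell. Plat (ENSMUSG00000031538), tissue plasminogen activator, stood at 2.48, 1.49, 1.13 and 2.501 CPM in antiCD47 livers, against 3.89, 3.44, 4.60 and 5.91 CPM in IgG livers. The groups did not overlap. The log2 fold change was -1.23 ± 0.27 (SE; edgeR adjusted p = 0.028), from 363 counts in antiCD47 livers and 963 counts in IgG livers, the lowest value of the 32 genes. The call was lost without antiCD47 2, antiCD47 3, IgG 1, IgG 3 or IgG 4 (edgeR adjusted p = 0.0593 to 0.0844). Plat was counted here with the hepatocyte-made genes, although endothelial cells are known as its main source. With Plat, Procr, Tfpi and F8 moved to the other genes, 6 of 22 hepatocyte-made genes rose and 2 fell, and 1 of 10 others rose and 2 fell. The biliary and stellate marker sums given beside F3 were lower in antiCD47 livers as Plat was, the stellate sum mainly through Col1a1 and Col3a1. The part of these cells in the Plat result was not tested.

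Plg, plasminogen, the zymogen of plasmin, stood at 1335, 1749, 1397 and 1343 CPM in antiCD47 livers, against 1266, 1411, 1237 and 1181 CPM in IgG livers (log2 0.19 ± 0.11, edgeR adjusted p = 0.233). Plau, urokinase, averaged 4.21 ± 1.08 CPM in antiCD47 livers and 5.18 ± 0.85 CPM in IgG livers (log2 -0.30 ± 0.19, edgeR adjusted p = 0.309). Plaur, the urokinase receptor, averaged 2.40 ± 0.80 CPM in antiCD47 livers and 2.13 ± 0.25 CPM in IgG livers (log2 0.17 ± 0.24, edgeR adjusted p = 0.654; log2 0.09 without IgG 2). Its sign turned with scaling by library totals and with voom quality weights. In all 3 genes the groups overlapped.

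Both inhibitors of fibrinolysis on the list rose. Cpb2 (ENSMUSG00000021999), the carboxypeptidase TAFI, which strips from fibrin the lysines that plasminogen binds, stood at 359, 487, 492 and 331 CPM in antiCD47 livers, against 242, 295, 238 and 225 CPM in IgG livers. Serpinf2 (ENSMUSG00000038224), alpha 2-antiplasmin, the direct inhibitor of plasmin, stood at 344, 500.1, 429.8 and 355 CPM in antiCD47 livers, against 267, 330.2, 274 and 249 CPM in IgG livers. Neither gene's groups overlapped, and IgG 2 was again the highest IgG library. The log2 fold changes were 0.74 ± 0.15 for Cpb2 and 0.54 ± 0.13 for Serpinf2 (SE; edgeR adjusted p = 0.0221 and 0.0358). The Cpb2 call was lost without antiCD47 3, IgG 1, IgG 3 or IgG 4 (edgeR adjusted p = 0.0659 to 0.0759), and the Serpinf2 call without these or antiCD47 2 (0.0644 to 0.101).

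Some libraries were often at the ends of their group across the hepatocyte-made genes. The library IgG 2 was the highest IgG library in 18 of the 26, including 6 of 6 that rose, and antiCD47 2 the highest antiCD47 library in 17 of 26, including 5 of 6 that rose. The library antiCD47 4 was the lowest of its group in 5 of the 6 that rose. The ranking did not hold for all: IgG 2 was the lowest IgG library in 5 of the 26, F11, F8, Procr, Tfpi and Plat. All of these but F11 were moved to the macrophage or endothelial genes in the other division given above. The library antiCD47 2 was the lowest antiCD47 library in 2 of the 26, F9 and Klkb1. Among the macrophage and endothelial genes IgG 2 was the lowest IgG library in 4 of 6. The 10 neutrophil markers summed to 19.3, 36.2, 27.6 and 16.8 CPM in antiCD47 livers, against 7.97, 9.38, 7.43 and 6.78 CPM in IgG livers, and 9 of the 9 tested rose. In 8 of these 9 the groups did not overlap. The levels were low, with 3 of the 10 under 1 CPM in all 8 libraries, and Ngp held 3 counts in IgG 4. No fits that leave out a library are given for these markers. The neutrophil sum, like the fibrinogen genes, was highest in antiCD47 2 and 3 and, among IgG libraries, in IgG 2. The part of neutrophils in the values of the hepatocyte-made genes was not tested.

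**Figure D4:**
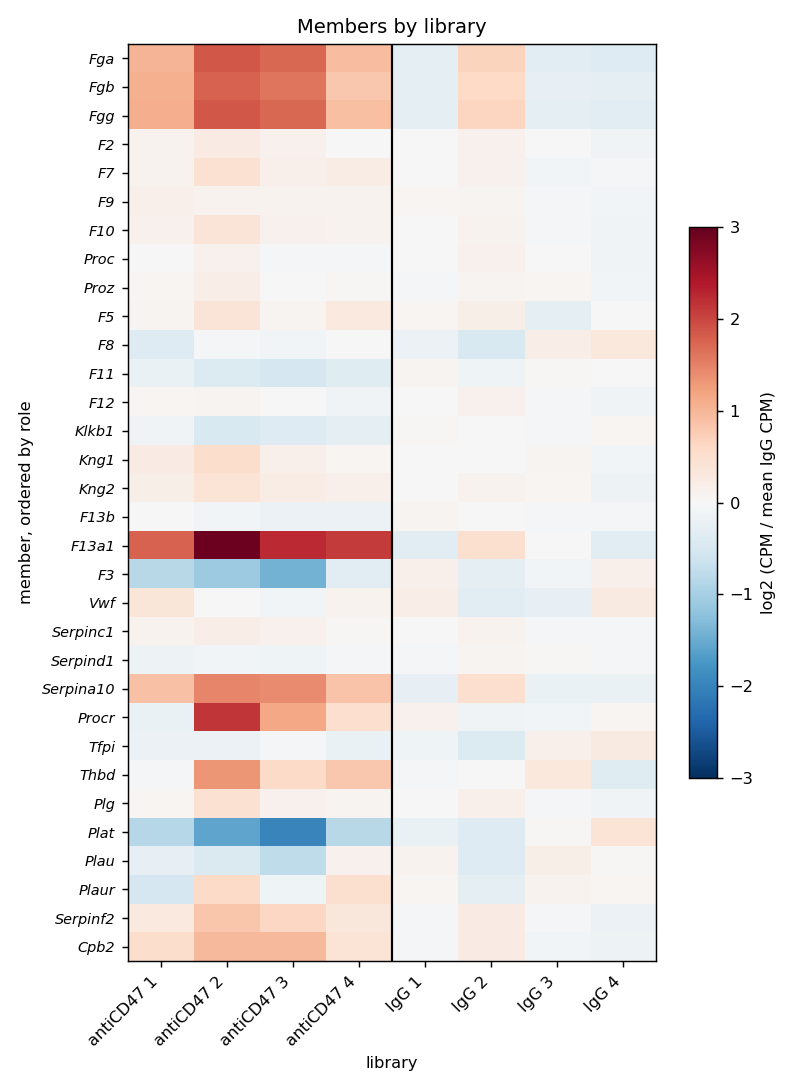
Log2 of each library's CPM over the mean IgG CPM of the gene, with the 32 genes in rows ordered by role and the 8 libraries in columns, antiCD47 left of the line. The fibrinogen rows and Serpina10 are red in all 4 antiCD47 columns and paler red in IgG 2. Serpinf2 and Cpb2 are pale red in the antiCD47 columns and close to white in IgG 2, while most zymogen rows stay near 0.

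Per kilobase of annotated transcript, which depends on the transcript length assigned to a gene, the levels spanned several orders of magnitude. Fgg was the highest in both groups, at 3200 CPM per kb in antiCD47 livers and 1174 CPM per kb in IgG livers, followed by Fga at 3061 CPM per kb in antiCD47 livers and 1127 CPM per kb in IgG livers. The gap between Fgg and Fga was smaller than the SD between libraries (1012 and 1004 CPM per kb in antiCD47 livers, 432.5 and 452 in IgG livers), yet within each of the 8 libraries Fgg was above Fga per kb. Fgb came next in antiCD47 livers, at 1745 ± 529.9 CPM per kb, and behind Kng1 in IgG livers, at 675 ± 230.4 CPM per kb against 787 ± 36 CPM per kb for Kng1. After these came F2, at 651 CPM per kb in antiCD47 livers and 599 in IgG livers, Plg and Serpinc1. Plg was at 528 CPM per kb in antiCD47 livers and 462 in IgG livers. Serpinc1 was at 445 in antiCD47 livers and 409.7 in IgG livers. Cpb2 was at 283 CPM per kb in antiCD47 livers and 169 in IgG livers. Serpina10 was at 125 in antiCD47 livers and 54.9 in IgG livers. The lowest were F13a1 in IgG livers, at 0.269 CPM per kb, and Plat in antiCD47 livers, at 0.752 CPM per kb.

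Beyond the 32 genes, 28 further genes of the system were listed, namely receptors, vitamin K enzymes, further serpins and fibrinogen-like proteins. Of these, 25 were measured well enough to test, and 2 rose and 2 fell, 16% of those tested against the 10.8% of all genes, with a median log2 fold change of 0.15. Fgl1, a hepatocyte protein related to fibrinogen, stood at 374, 614, 535 and 307 CPM in antiCD47 livers, against 145, 324, 135 and 124 CPM in IgG livers (log2 1.33 ± 0.33, edgeR adjusted p = 0.0366). Tgm2, tissue transglutaminase, a relative of factor XIII, stood at 284, 596, 527 and 378 CPM in antiCD47 livers, against 212, 293, 217 and 251 CPM in IgG livers (log2 0.88 ± 0.21, edgeR adjusted p = 0.0348). In each of them 1 IgG library, IgG 2, lay above the lowest antiCD47 library. Without IgG 2 the log2 fold change of Fgl1 was 1.76 (edgeR adjusted p = 0.0115). Both calls were lost without antiCD47 2, antiCD47 3, IgG 1, IgG 3 or IgG 4 (edgeR adjusted p = 0.0691 to 0.104), and that of Fgl1 also in the robust fit with all 8 libraries (0.0563).

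The 2 genes that fell encode protease-activated receptors. F2r, the thrombin receptor PAR1, stood at 55.2, 35.4, 41.1 and 43.9 CPM in antiCD47 livers, against 76.0, 55.9, 74.9 and 77.7 CPM in IgG livers (log2 -0.70 ± 0.15, edgeR adjusted p = 0.0257), and without IgG 2 its log2 fold change was -0.79 (0.017). F2rl1, the related receptor PAR2, averaged 0.834 ± 0.247 CPM in antiCD47 livers and 1.94 ± 0.17 CPM in IgG livers (log2 -1.21 ± 0.23, edgeR adjusted p = 0.0207). The F2rl1 values rest on 160 counts in antiCD47 livers and 413 counts in IgG livers. Neither gene's groups overlapped, and both calls were lost without antiCD47 3, IgG 1, IgG 3 or IgG 4 (edgeR adjusted p = 0.0577 to 0.0816). Serping1, the C1 inhibitor, which also blocks kallikrein and factor XIIa, averaged 788 ± 113 CPM in antiCD47 livers and 604 ± 76 CPM in IgG livers (log2 0.38 ± 0.12, adjusted p = 0.0689), and it passed without antiCD47 1 (0.0269) or without IgG 2 (0.0438) and, with all 8 libraries, in DESeq2 (0.0192), in voom with quality weights (0.0127) and with the replicate block (0.031). Pros1, protein S, the cofactor of activated protein C, averaged 96.3 ± 5.6 CPM in antiCD47 livers and 86.6 ± 3.1 CPM in IgG livers (log2 0.15 ± 0.06, edgeR adjusted p = 0.122), and it passed in voom with quality weights (0.0252).

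The calls of the 32 genes depended on which libraries were used, as for the whole table. Leaving out antiCD47 3, IgG 1 or IgG 3 left 1 of the 11 genes past the threshold, F13a1 in each case, and leaving out IgG 4 left 0, with 21, 174, 92 and 2 genes past it in the whole table. In each of the 8 fits that leave out a library, all 11 genes kept their direction, with an unadjusted p of at most 0.0129 (Klkb1). The genes were called with all 8 libraries and each such fit reuses 7, so this is a description. With all 8 libraries an unadjusted edgeR p under 0.05 was reached by 17 of the 32 genes, and by 5032 of all 15472 genes tested.

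**Figure D5:**
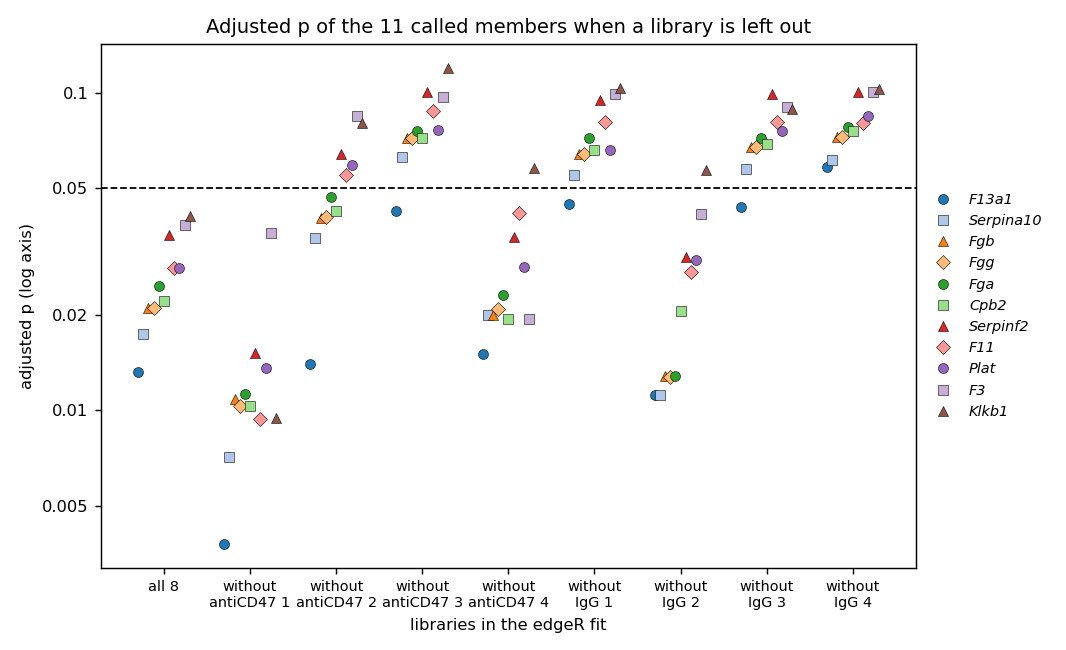
Adjusted p (log axis) of the 11 genes past the threshold, with all 8 libraries and with each left out in turn, from the edgeR fit over all genes (dashed line: 0.05). Without IgG 4 all 11 symbols lie above the line, F13a1 at 0.0583, and without antiCD47 1 all 11 lie below it.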

How the data were processed

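The members and gene lists were chosen with earlier results of these data known. Per Ensembl gene, the deposited table gives estimated counts, all whole numbers and not normalized. The submitters' processing notes name Salmon 1.3.0, DESeq2 1.32.0 and GRCm39 without saying what each was used for, and they do not say whether strand was used. Per the file headers, the authors' comparison table gives each gene a mean normalized signal, a log2 fold change, a p-value and its adjusted value, and a score for ranking. Its gene identifiers and symbols were used to find the genes. Of its results, only the adjusted p-values were used here.

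Of 54309 genes, 27899 had no count, and 15472 passed filterByExpr by group. Libraries were scaled by TMM, and antiCD47 was compared with IgG by glmQLFit and glmQLFTest in edgeR 4.0.16 (R 4.3.3). P-values were two-sided, adjusted by the Benjamini-Hochberg method across every gene tested, with a threshold of 0.05. Library totals of at least 43691472 counts and a biological coefficient of variation of 16.7% set the precision. CPM is the count over the TMM-scaled library size. The fit was tested on simulated data.

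Named were all 32 members, and those of 28 further coagulation genes past the threshold with Pros1 and Serping1. Up to 3 of the most abundant genes of each marker or regulator list were named too. Beyond this rule, Stat3, further regulators and further hepatocyte, macrophage, monocyte and stellate markers were added after their values were seen. The single result of 1 further gene under this rule is not reported here. Of the list genes 1 marker was unmatched, and 0 sample columns were unused. Lengths came from GENCODE vM21 and promoters from RefSeq (GRCm38.p6), both of an older build than GRCm39, so coordinates are given on GRCm38.p6 for promoters only.

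Other scalings (size factors of DESeq2, library totals, upper quartile), testing without the filter on low counts, at least 10 counts in each library of either group, DESeq2 1.42.0, limma 3.58.1 voom with and without quality weights, a robust fit, the replicate number as a block, each library left out, an adjusted p of 0.1 and another division of 4 members were tried as alternatives. Figures used matplotlib 3.10.9.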

Additional observations from a re-analysis of the deposited data

Results flagged for a closer look

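In 78 groups of 4 libraries checked, 10 held a library whose gap to its nearest neighbour, over the group's range, exceeded Dixon's critical value for 4 samples, which chance exceeds in about 1 group in 20. Of the 10, 7 were in IgG 2. That library was high for Fga (4212 CPM, against 2029 to 2189 CPM in the other IgG libraries), Fgb (3888, against 2087 to 2168), Fgg (3131, against 1621 to 1664), Serpina10 (191.8, against 113.5 to 117.8) and Fgl1 (324.2, against 124.4 to 145.1). It was low for Plaur (1.764 CPM, against 2.229 to 2.309) and F2r (55.85, against 74.88 to 77.69). Without it the log2 fold changes of Fga, Fgb, Fgg and Serpina10 were larger, 1.77, 1.64, 1.74 and 1.41. In antiCD47 2, F10 stood at 292.8 CPM (238.7 to 244 in the other antiCD47 libraries) and Plg at 1749 CPM (1335 to 1397). In antiCD47 3, Tfpi stood at 6.451 CPM (5.79 to 5.88 in the others).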

How the results depend on the processing

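Over 576 values of the 32 genes under the alternatives, 519 kept their side of the threshold, 48 lost and 9 gained a call, and no called value changed sign. Signs turned only for genes not past the threshold, by library totals for F2, F9, F12, Serpinc1, Proc, Proz, Plaur and Vwf. That scaling moved the median of all genes to -0.19. Leaving out a library moved the numbers past the threshold to 2 to 3630 genes in all, 0 to 9 members higher and 0 to 4 lower, 0 to 7 hepatocyte-made and 0 to 2 macrophage or endothelial members higher. Of all genes tested, 3581 passed with library totals (428 higher, 3153 lower), 1603 with upper quartile scaling (634 higher, 969 lower), 3179 with DESeq2, 4331 with voom quality weights and 3574 at an adjusted p of 0.1; 2 macrophage or endothelial members were higher with DESeq2 and at 0.1. With the replicate number as a block 2425 genes passed and 8 members were higher, Kng2 added, while 4 were lower. The labels do not say whether same-numbered libraries were paired. Deviations of same-numbered libraries correlated at 0.03, 0.16, -0.02 and 0.03, and only antiCD47 2 correlated best with its own number. So few correlations cannot settle whether the numbers mark pairs. For genes under 10 CPM (F13a1, F3, Plat, Procr) a library held as few as 40 counts, and for F2rl1 as few as 26 counts, so counting error adds to their spread.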
